A study of Mus musculus with 12 samples.

Results

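The receptors for the colony-stimulating factors and their close relatives were followed in mouse bone marrow neutrophils and macrophages after stimulation with CGRP, a neuropeptide released by sensory nerve endings that signals through the RAMP1–CALCRL receptor. The set held 8 genes, taken by name from the 52636 genes that each of the 2 deposited count tables lists: the M-CSF receptor *Csf1r* and its ligand *Csf1*, the GM-CSF receptor chains *Csf2ra*, *Csf2rb* and *Csf2rb2*, the G-CSF receptor *Csf3r*, and the related receptor tyrosine kinases *Flt3* and *Kit*. Neutrophils were enriched from the marrow of C57BL/6J mice that were 8 to 12 weeks old and were treated after isolation, with no culture before treatment stated. Monocytes from such marrow were first kept for 3 days with 10 ng/ml M-CSF, and the labels call the resulting cells monocytes/macrophages. CGRP at 1 nM, or PBS (saline) as the control, was given to both for 4 h, and each of the 4 groups had 3 libraries, 12 in all.

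Each cell type thus had its own isolation kit, medium and culture time, and whether M-CSF was still present during the 4 h was not stated. Nothing in the labels says whether the 3 libraries of a group came from separate mice, so the p-values measure the spread between these libraries, which may be technical. The libraries read the 3′ ends of transcripts and held between 2002559 and 3631989 counts after removal of PCR copies. Levels are given as CPM (counts scaled to a common library size), with TMM factors from the 12 libraries, and 3 counts, taken as the floor, amounted to between 0.826 and 1.50 CPM of a library's total. The summed level of 10 macrophage markers was between 36408 and 52091 CPM in the macrophage libraries and between 1571 and 2060 CPM in the neutrophil libraries, and 10 neutrophil markers summed to between 157133 and 235861 CPM in neutrophils and between 258 and 401 CPM in macrophages. Markers of other marrow cells were also present in the neutrophil libraries. Their sums were between 3217 and 4100 CPM for 6 granulocyte–monocyte progenitor markers and between 2458 and 3766 CPM for 4 monocyte markers. For 7 mast cell and basophil markers they were between 1301 and 2156 CPM, and for 4 eosinophil markers between 523 and 642 CPM. Whether this RNA came from such cells or from the neutrophils was not tested.

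These receptors control how many myeloid cells the marrow makes and how long they live. CSF1R and KIT and FLT3 are receptor tyrosine kinases, CSF1R being the receptor on which macrophages depend for survival, while KIT and FLT3 mark stem and progenitor cells and KIT also mast cells. The GM-CSF receptor joins a ligand-binding α chain, CSF2RA, to a β chain, CSF2RB, that the receptors for interleukin-3 and interleukin-5 share and that carries the JAK2-bound signalling tail. Mice have an additional β chain gene, *Csf2rb2*, whose product serves interleukin-3 alone. CSF3R, the receptor for G-CSF, drives neutrophil production and signals through STAT3.

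The β chain genes are near copies that lie 20030 bases apart on chromosome 15 of GRCm38, *Csf2rb* at 78325752 to 78353847 on the plus strand and *Csf2rb2* at 78282507 to 78305721 on the minus strand. Their coding sequences, of 2688 and 2634 bases, were identical at 95.24% of the 2628 aligned positions. The stretch from coding base 2485 to 2634 of each gene is shown as an example of how alike the coding sequences of the copies are. It lies in the last coding exon and ends 1873 bases before the 3′ end of the longest *Csf2rb* transcript and 1813 bases before that of *Csf2rb2*, outside the last 500 bases that are considered below for 3′ reads. The capitals mark the 6 positions of 150 that differ. It lies at chr15:78348979-78349128 on the plus strand in *Csf2rb* and at chr15:78284320-78284469 on the minus strand in *Csf2rb2*.
Csf2rb: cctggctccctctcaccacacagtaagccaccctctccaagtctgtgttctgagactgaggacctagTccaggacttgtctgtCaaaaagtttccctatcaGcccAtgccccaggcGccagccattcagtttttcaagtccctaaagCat
Csf2rb2: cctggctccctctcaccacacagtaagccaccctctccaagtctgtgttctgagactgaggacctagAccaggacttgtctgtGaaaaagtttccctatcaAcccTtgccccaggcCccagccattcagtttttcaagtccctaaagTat
Of the 31-base sequences of the longest transcript, 29.3% in *Csf2rb* and 30.9% in *Csf2rb2* also occur in another gene, and among the last 500 bases of either transcript 1.28% do. How reads that match both copies were assigned was not stated, so the genes were also tested as a sum.

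Both β chain genes rose with CGRP in macrophages. *Csf2rb* was at 94.1, 95.9 and 141 CPM in the PBS libraries and at 312, 403 and 429 CPM in the CGRP libraries. Each CGRP library was thus more than the highest PBS library, and the mean went from 110.3 ± 26.5 to 381 ± 61.2 CPM (SD, n = 3 each). In limma-voom the log2 fold change was 1.81 (SE 0.17, adjusted p = 3.59e-06), a 3.50-fold rise and the place 30 by p among 9393 genes. *Csf2rb2* stood at 33.9, 39.0 and 55.4 CPM with PBS and at 108, 139 and 124 CPM with CGRP, again without overlap. Its mean went from 42.7 ± 11.2 to 124 ± 15.4 CPM (SD, n = 3 each), a log2 fold change of 1.57 (SE 0.18, limma-voom adjusted p = 2.83e-05). With the copies summed into 1 feature the log2 fold change was 1.74 (SE 0.17, limma-voom adjusted p = 4.46e-06). In bulk RNA, more RNA per cell and more cells of an expressing type cannot be told apart. Several summed marker lists were also higher in each CGRP macrophage library than in each PBS one. The macrophage markers summed to between 36408 and 40262 CPM with PBS and between 44596 and 52091 CPM with CGRP, and 1 of 10, the apolipoprotein E gene *Apoe*, rose (log2 fold change 0.46, limma-voom adjusted p = 0.0263). The other 9 together lay between 12852 and 13352 CPM with PBS and between 13249 and 15767 CPM with CGRP, ranges that overlap. The neutrophil markers summed to between 258 and 360 CPM with PBS and between 377 and 401 CPM with CGRP, and 0 of the 7 that could be tested passed. The sums of the 6 dendritic cell markers (4.02 to 5.69 CPM with PBS, 6.89 to 9.60 CPM with CGRP), the 5 B cell markers (31.3 to 33.6 CPM, 37.6 to 40.6 CPM) and the 7 mast cell and basophil markers (13.8 to 16.2 CPM, 16.9 to 21.1 CPM) were low, and none of the 1, 1 and 2 that could be tested passed. Those of the monocyte, progenitor, eosinophil and platelet markers overlapped between the groups, although 1 of 4 monocyte markers, the chemokine receptor gene *Ccr2*, fell (log2 fold change −0.81, limma-voom adjusted p = 4.80e-04). The level of *Csf2rb* in the CGRP macrophage libraries lay above that in any neutrophil library (182 to 223 CPM). The part of the cell types of these marker lists in the rise of the β chain genes was not tested.

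These were the only members called in macrophages, 2 of the 6 that had enough counts to test, where 7.43% of all genes tested passed the threshold of an adjusted p of 0.05, 3.46% as higher and 3.97% as lower. The α chain gene *Csf2ra* (chromosome 19, 61223957 to 61228429, minus strand) did not pass. It was at 547, 483 and 522 CPM with PBS and at 527, 606 and 586 CPM with CGRP, so that the groups overlapped (log2 fold change 0.15, 95% interval −0.11 to 0.41, limma-voom adjusted p = 0.561). *Csf3r* likewise overlapped, with means of 38.7 ± 5.20 and 42.9 ± 4.72 CPM (SD, n = 3 each, log2 fold change 0.18, limma-voom adjusted p = 0.632).

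**Figure D1:**
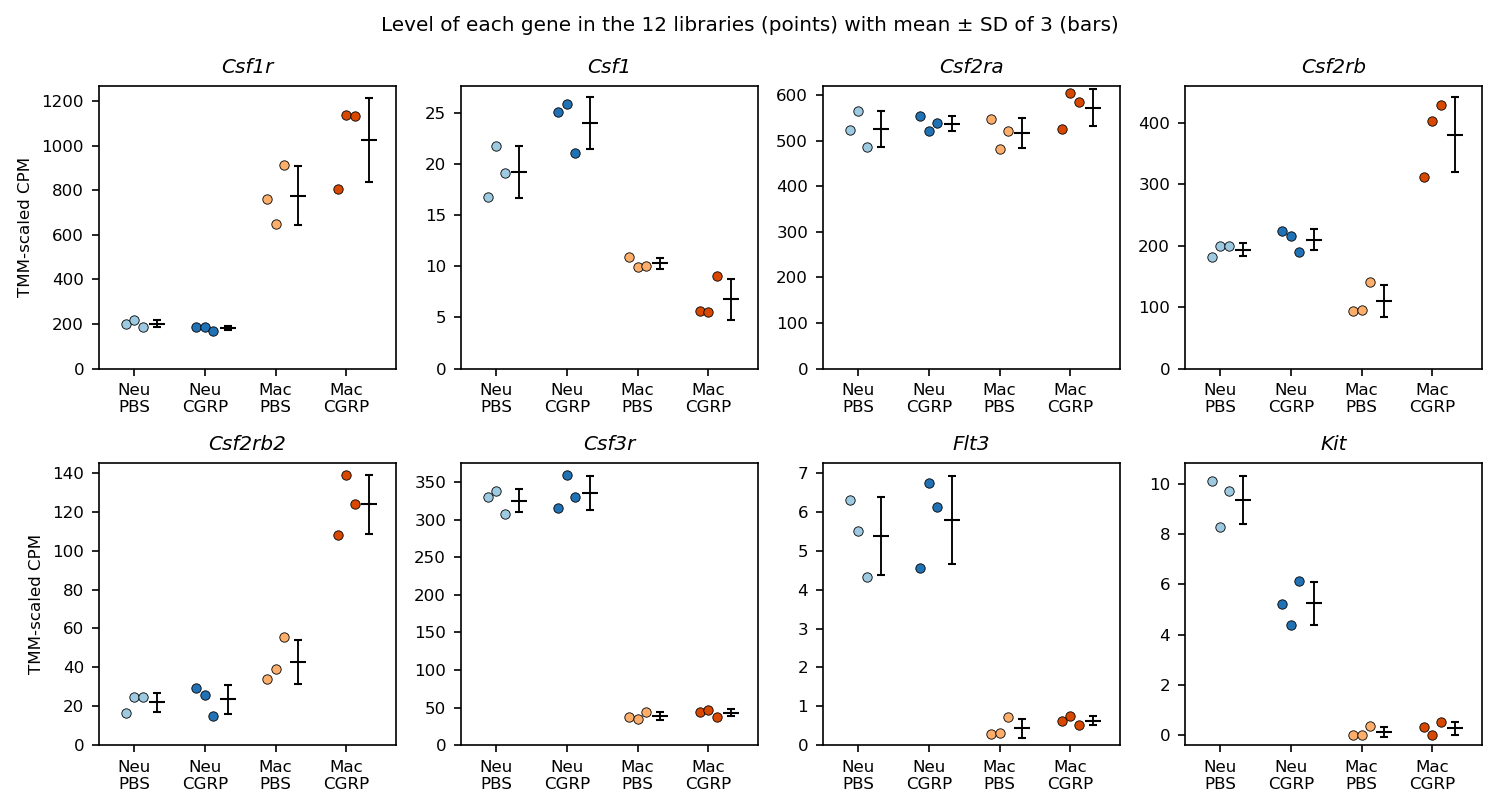
Level of each of the 8 genes in every library, on a linear axis of TMM-scaled CPM that starts at or just below 0; points are libraries and bars the mean ± SD of 3. The CGRP macrophage libraries stand apart from all others for Csf2rb and Csf2rb2, while Csf2ra lies between 483 and 606 CPM in all 12.

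In neutrophils no member was called in limma-voom, 0 of 8 tested, where 2.53% of 9819 genes were (1.51% higher and 1.02% lower). *Csf2rb* was at 182, 200 and 200 CPM with PBS and at 223, 216 and 190.3 CPM with CGRP (log2 fold change 0.13, 95% interval −0.05 to 0.32, limma-voom adjusted p = 0.589). The groups overlapped, and the interval ends below the rise seen in macrophages. *Csf2rb2* also overlapped, at 16.4, 24.9 and 24.5 CPM with PBS and 29.6, 25.8 and 14.9 CPM with CGRP (log2 fold change 0.14, limma-voom adjusted p = 0.865). At an unadjusted p under 0.05, 1 of the 8 members, *Kit*, passed, where 12.8% of all genes tested did. The quasi-likelihood test of edgeR called none of the 8, and DESeq2 called none of the 6 for which it gave an adjusted p (all but *Kit* and *Flt3*).

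The CGRP effect on the β chain genes was larger in macrophages than in neutrophils when the difference itself was tested over all 12 libraries. It was 1.69 on the log2 scale for *Csf2rb* (SE 0.20, limma-voom adjusted p = 1.26e-05) and 1.45 for *Csf2rb2* (SE 0.31, limma-voom adjusted p = 0.00962), 2 of 8 members tested, where 2.36% of 10694 genes passed (1.21% higher and 1.15% lower). The difference for *Csf2rb* passed whichever of the 12 libraries was left out, and that for *Csf2rb2* in 9 of 12 such fits. The latter fell short without PBS neutrophil replicate 2 (adjusted p = 0.0564), PBS neutrophil replicate 3 (0.0516) or PBS macrophage replicate 1 (0.0532), all in limma-voom.

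**Figure D2:**
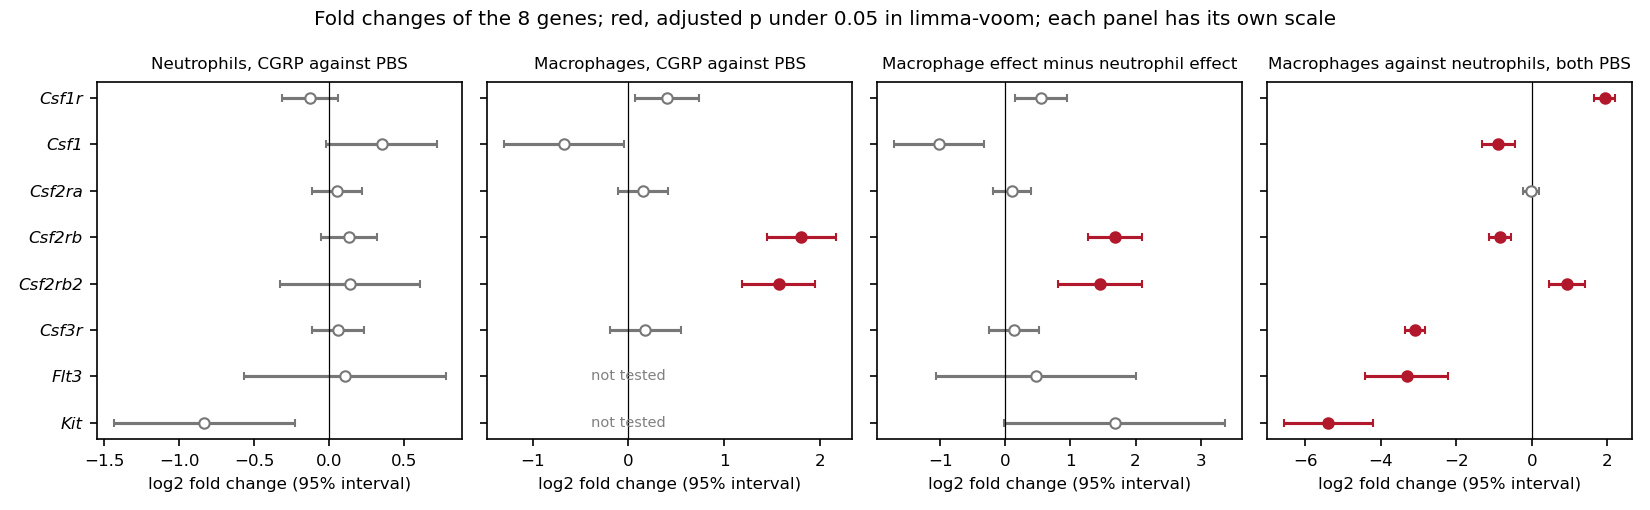
Log2 fold change of each gene (points) with its 95% interval (bars) in limma-voom; the panels show CGRP against PBS in neutrophils, the same in macrophages, the macrophage effect minus the neutrophil effect, and macrophages against neutrophils with PBS, each on its own axis. Red points passed an adjusted p of 0.05: Csf2rb and Csf2rb2 in macrophages and in the difference, and 7 of 8 genes between the cell types.

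Because the α and β chains are counted in the same library, their ratio does not depend on how libraries are scaled. It compares counts of different transcripts, and so was read only between groups. The summed β chain counts per *Csf2ra* count were 0.234, 0.279 and 0.376 in PBS macrophages and 0.797, 0.894 and 0.943 in CGRP macrophages. Their mean went from 0.296 ± 0.0725 to 0.878 ± 0.0743 (SD, n = 3 each), with p = 0.1 in an exact two-sided permutation test, the smallest value that 3 against 3 libraries allow. In neutrophils the ratio was 0.412 ± 0.0431 with PBS and 0.434 ± 0.0465 with CGRP (SD, n = 3 each, exact two-sided permutation p = 0.7). On the log2 scale the change in macrophages was 1.59, and leaving out any 1 library gave between 1.44 and 1.78.

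The share that each copy took of the β chain counts lay in separate ranges in the cell types. *Csf2rb2* made up between 26.5% and 28.9% of the β chain counts in the 3 PBS macrophage libraries and between 8.29% and 11.1% in the 3 PBS neutrophil libraries, ranges that do not overlap (means 27.9% and 10.1%, exact two-sided permutation p = 0.1, the smallest possible). With CGRP the share was 25.7%, 25.6% and 22.5% in macrophages, each below the PBS libraries (exact two-sided permutation p = 0.1). The exact (Clopper–Pearson) 95% intervals of single libraries overlapped between these groups, as from 22.4% to 30.8% in PBS replicate 1 and from 23.4% to 28.2% in CGRP replicate 1. In neutrophils the share was 9.88% ± 2.32 with CGRP and 10.1% ± 1.56 with PBS (SD, n = 3 each, exact two-sided permutation p = 0.8). The intervals cover counting error only.

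**Figure D3:**
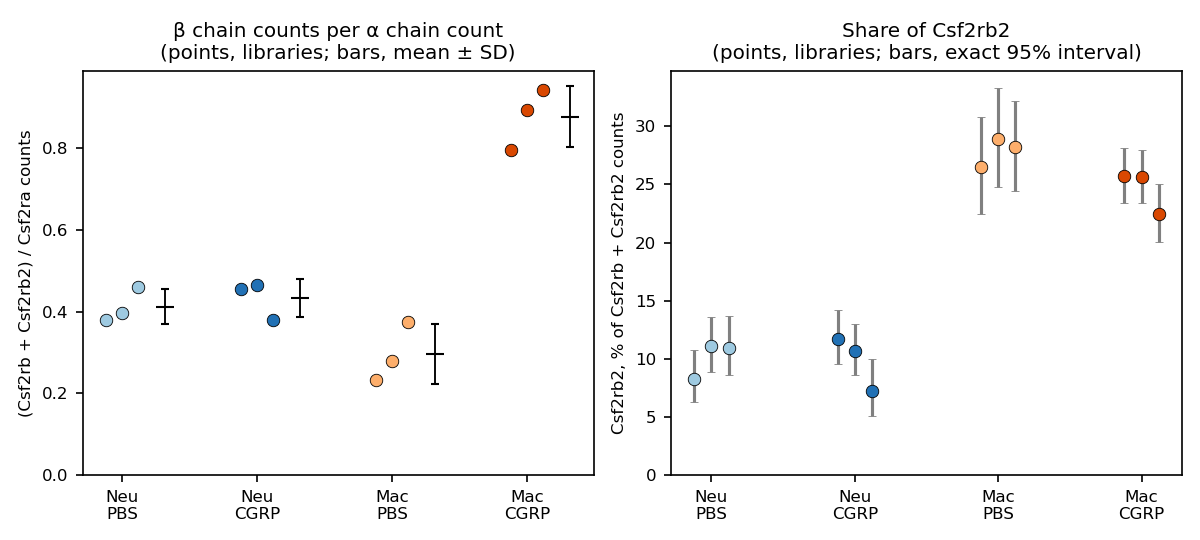
Left, counts of Csf2rb and Csf2rb2 together per count of Csf2ra in each library (points) with mean ± SD of 3 (bars); right, Csf2rb2 as a percent of the counts of both β chain genes, with exact 95% intervals. The ratio rises to between 0.797 and 0.943 in CGRP macrophages, and the Csf2rb2 share is above 22% in all macrophage libraries and below 12% in all neutrophil libraries.

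The promoters of the α chain gene, which did not pass, and of the interleukin-3 β chain gene, which rose, are shown side by side, since cyclic AMP is the messenger of the CGRP receptor and PU.1 is the transcription factor that opens many myeloid receptor genes. RefSeq windows (GRCm38.p6) were found for 6 of the 8 genes. There was none for *Csf1r* or for *Csf2rb*, the other β chain gene that rose. Each sequence below holds the 250 bases before the start annotated in RefSeq and is written in the direction of the gene. Capitals mark TGACG and TGACGTCA, the short and the full cyclic AMP response element, and GAGGAA, a PU.1 core, on either strand. The *Csf2ra* window is chr19:61228419-61228668 and the *Csf2rb2* window chr15:78305722-78305971, both on the minus strand. The gene positions given above come from another annotation (GENCODE), in which *Csf2ra* reaches to 61228429. The bases of its window nearest the RefSeq start thus lie within the gene as placed there.
Csf2ra: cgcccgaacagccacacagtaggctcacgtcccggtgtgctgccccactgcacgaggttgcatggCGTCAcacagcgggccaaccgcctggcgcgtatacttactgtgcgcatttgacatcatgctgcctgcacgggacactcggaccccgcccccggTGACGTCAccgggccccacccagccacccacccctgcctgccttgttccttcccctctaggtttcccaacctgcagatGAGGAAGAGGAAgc
Csf2rb2: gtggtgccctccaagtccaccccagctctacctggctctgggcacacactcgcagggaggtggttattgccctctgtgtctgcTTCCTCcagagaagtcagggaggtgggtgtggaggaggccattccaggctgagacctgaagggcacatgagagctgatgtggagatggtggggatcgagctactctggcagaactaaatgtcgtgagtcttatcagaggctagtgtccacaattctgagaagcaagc
The *Csf2ra* window held the full element 92 bases before the start. It held 3 matches to the short element, of which those at 92 and 89 bases lie within the full element, on opposite strands, and that at 185 bases stands alone. It also held 2 matches to GAGGAA at 14 and 8 bases, of which the latter lies within the gene as placed by GENCODE and the former across its start. The *Csf2rb2* window held neither cyclic AMP motif and 1 match to GAGGAA, on the opposite strand and 167 bases before the start. Over 32851 promoters of the same length, 1.546% held the full element, 17.765% the short element and 23.253% the PU.1 core. Of the other 4 genes with a window, none held a cyclic AMP motif. A match shows only that the letters are present.

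*Csf1r* (chromosome 18, 61100598 to 61132149, plus strand) was far higher in macrophages than in neutrophils. It was at 761, 649 and 913 CPM in PBS macrophages and at 199, 217 and 186 CPM in PBS neutrophils (log2 difference 1.93, SE 0.14, limma-voom adjusted p = 1.92e-11). With CGRP it was at 807, 1138 and 1132 CPM in macrophages, which overlaps the PBS libraries, and the log2 fold change of 0.40 (SE 0.16) did not pass (limma-voom adjusted p = 0.153). That call turned on single libraries: the adjusted p of limma-voom was 0.0451 without PBS replicate 3 and 0.0224 without CGRP replicate 1, and 0.0110 when libraries were weighted by quality. In neutrophils the log2 fold change was −0.13 (limma-voom adjusted p = 0.609), and the difference between the cell types, 0.54, had a limma-voom adjusted p of 0.178. That difference passed without macrophage PBS replicate 3 (0.0494), without macrophage CGRP replicate 1 (0.0178) and with quality weights (0.0146). The last 500 bases of the longest *Csf1r* transcript also lie in *Hmgxb3* on the opposite strand, which had at most 34 counts in any library. As the strand setting of the counting was not stated, some *Csf1r* reads could have been lost or assigned elsewhere.

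Its ligand gene *Csf1* (chromosome 3, 107741048 to 107760469, minus strand), which encodes the M-CSF that was also in the culture medium, was low in both cell types. In macrophages it had 38, 33 and 28 counts with PBS and 18, 15 and 18 with CGRP, which is 10.3 ± 0.541 and 6.75 ± 2.0 CPM (SD, n = 3 each). The groups did not overlap, as for 24.1% of genes tested in macrophages, and the log2 fold change of −0.67 (SE 0.30) did not pass (limma-voom adjusted p = 0.215). In neutrophils it had 53, 71 and 53 counts with PBS and 77, 88 and 48 with CGRP, and the log2 fold change was 0.35 (SE 0.18, limma-voom adjusted p = 0.433). The effects had opposite signs, and their difference of −1.01 (SE 0.34) did not pass (limma-voom adjusted p = 0.133). Between the PBS groups *Csf1* was lower in macrophages, by a log2 difference of −0.88 (SE 0.22, limma-voom adjusted p = 0.00097).

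Between PBS macrophages and PBS neutrophils, 7 of the 8 members passed, 2 as higher and 5 as lower in macrophages, where 67.9% of 10694 genes did (32.5% higher and 35.4% lower). The libraries of the 2 groups did not overlap for these 7 members, as for 70.5% of genes. Cell type, isolation, medium and culture with M-CSF cannot be told apart in this comparison. *Csf1r* and *Csf2rb2* were higher in macrophages, the latter by a log2 difference of 0.94 (SE 0.23, limma-voom adjusted p = 9.78e-04). *Csf1*, *Csf2rb*, *Csf3r*, *Flt3* and *Kit* were lower. *Csf2rb* differed by −0.84 (SE 0.15, limma-voom adjusted p = 2.17e-05), so that the copies had opposite directions, and their sum was lower in macrophages by −0.53 (SE 0.15, limma-voom adjusted p = 0.00291). *Csf2ra* was the exception, at 518 ± 32.3 CPM in macrophages and 525 ± 39.8 CPM in neutrophils (SD, n = 3 each, log2 difference −0.02, 95% interval −0.23 to 0.18, limma-voom adjusted p = 0.858). All 4 groups overlapped for this gene.

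The order of the groups was therefore not the same for the 3 GM-CSF receptor genes. For *Csf2rb* it ran from CGRP macrophages over the 2 neutrophil groups, which overlap each other, down to PBS macrophages. For *Csf2rb2* both macrophage groups lay above both neutrophil groups, and only the neutrophil groups overlapped. For *Csf2ra* no neighbours in the order were apart.

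*Csf3r* (chromosome 4, 126024550 to 126044440, plus strand) was highest in neutrophils, at 330.1, 339 and 308 CPM with PBS and 316, 360.2 and 331 CPM with CGRP (log2 fold change 0.06, limma-voom adjusted p = 0.847). PBS macrophages held 36.7, 34.8 and 44.6 CPM, a log2 difference of −3.08 (SE 0.13, limma-voom adjusted p = 1.38e-15). Of the last 500 bases of its longest transcript, 25.1% of the 31-base sequences also occur in another annotated gene, so that some reads could have been lost or assigned elsewhere.

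*Kit* (chromosome 5, 75574916 to 75656722, plus strand) and *Flt3* (chromosome 5, 147330741 to 147400489, minus strand) were present at low levels in neutrophil libraries and near 0 in macrophage libraries. *Kit* had 86 counts over the 3 PBS neutrophil libraries and 1 over the 3 PBS macrophage libraries, a depth-scaled ratio of 89.8 with an exact 95% counting interval from 15.7 to 3588. *Flt3* had 50 and 4 counts, a ratio of 13.1 with an interval from 4.79 to 49.8. At this depth neither could be tested for a CGRP effect in macrophages, where no library held more than 2 counts of either gene.

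Within neutrophils *Kit* had 32, 27 and 27 counts with PBS and 16, 15 and 14 counts with CGRP, or 9.38 ± 0.964 and 5.25 ± 0.870 CPM (SD, n = 3 each). Each CGRP library was below each PBS library, as for 17.8% of genes tested in neutrophils in either direction. The log2 fold change was −0.83 (SE 0.29, 95% interval −1.43 to −0.23), with a limma-voom adjusted p of 0.169 that did not pass under any alternative that gave an adjusted p (0.123 to 0.436, none given by DESeq2). The spread of the 3 PBS libraries (10.3% of the mean) was under the 18.7% that counting alone would give. The 6 progenitor markers summed to between 3607 and 4100 CPM with PBS and between 3217 and 3710 CPM with CGRP, with 0 of 6 called. The 7 mast cell and basophil markers summed to between 1301 and 1557 CPM with PBS and between 1922 and 2156 CPM with CGRP, and 1 of 7, the histidine decarboxylase gene *Hdc*, rose (log2 fold change 1.40, limma-voom adjusted p = 1.17e-09). The other 6 of these markers together were at 1103 ± 113 CPM with PBS and 1065 ± 91.2 CPM with CGRP (SD, n = 3 each), ranges that overlap. The part of either cell type in the *Kit* values was not tested. *Flt3* in neutrophils had between 12 and 23 counts in each library, and its groups overlapped (log2 fold change 0.11, 95% interval −0.56 to 0.78).

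Genes that act with these receptors were taken from 5 lists of 66 genes. Most genes of the ligand list were below what could be tested. *Csf2* and *Il3*, which encode GM-CSF and interleukin-3, had 0 counts in all 12 libraries, which allows at most 0.826 to 1.50 CPM in each. *Csf3*, which encodes G-CSF, had at most 5 counts in a neutrophil library and 0 in macrophages, and *Il34*, the other CSF1R ligand, at most 1 count. *Kitl*, the ligand of KIT, had at most 17 counts in a PBS macrophage library and at most 5 in a CGRP one. The interleukin-3 receptor α chain gene *Il3ra* was tested in both cell types, with a log2 fold change of 0.52 in macrophages (SE 0.23, limma-voom adjusted p = 0.208) and 0.37 in neutrophils (SE 0.21, limma-voom adjusted p = 0.486). The 5 genes of receptor shedding and degradation were tested in both, and none was called.

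In macrophages 4 genes of the 5 lists rose and 6 fell, of 47 tested (21.3%, against 7.43% of all genes), and their median log2 fold change was −0.006 beside 0.005 for all genes tested. The lists were chosen with earlier results of these data known, so their share cannot be read against that of all genes. Among the JAK–STAT genes, 2 of 8 tested rose. *Pim1*, a kinase gene that STAT5 switches on downstream of the β chain, had a log2 fold change of 1.62 (SE 0.22, limma-voom adjusted p = 1.54e-04), and *Stat3*, the transcription factor used by CSF3R, one of 0.88 (SE 0.16, limma-voom adjusted p = 0.00246). Of the transcription factors of myeloid receptor genes, 2 of 11 rose and 1 fell. *Ets2* had a log2 fold change of 1.60 and *Cebpb*, which encodes C/EBPβ, one of 1.20. *Egr2*, a gene that M-CSF induces, fell from 81.3 ± 2.12 to 14.4 ± 2.16 CPM (SD, n = 3 each, log2 fold change −2.46, SE 0.20, limma-voom adjusted p = 8.94e-07).

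Of the adaptors, kinases and phosphatases, 5 of 22 tested fell in macrophages and 0 rose (22.7%), and the median log2 fold change was −0.10. The 5 were *Ptpn6*, which encodes the phosphatase SHP-1 (−1.05, SE 0.13), the docking protein genes *Dok2* (−1.14, SE 0.15) and *Dok1* (−0.54, SE 0.16), the Ras–ERK inhibitor gene *Spred1* (−1.47, SE 0.29) and the adaptor gene *Sla* (−1.42, SE 0.26). The limma-voom adjusted p was between 8.37e-05 for *Ptpn6* and 0.0443 for *Dok1*. The fall of *Dok1* passed only without PBS replicate 2 among the 6 fits with a library left out, and it was lost in DESeq2 (adjusted p = 0.0515), with library totals in place of TMM (0.0563) and with no filter on low counts (0.0748), the latter pair in limma-voom. *Dok2* overlaps *Xpo7*, *Cebpb* overlaps *Tmem189* and *Stat3* overlaps *Stat5a*, each on the opposite strand and with at most 71, 170 and 62 counts in any library.

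In neutrophils 1 gene of the lists rose and 3 fell, of 53 tested (7.55%, against 2.53% of all genes), with a median log2 fold change of −0.07 beside 0.0008 for all genes tested. As in macrophages, the choice of the lists with earlier results known means that these shares cannot be compared. *Cebpb* rose, with a log2 fold change of 0.59 (SE 0.12, limma-voom adjusted p = 0.00514). *Ptpn6* fell from 590.3 ± 45.4 to 437 ± 27.2 CPM (SD, n = 3 each, log2 fold change −0.42, SE 0.08, limma-voom adjusted p = 0.00499). The monocyte-lineage transcription factor genes *Irf8* and *Klf4* fell by 0.83 (SE 0.12) and 0.76 (SE 0.15) on the log2 scale. The monocyte markers summed to between 3045 and 3766 CPM with PBS and between 2458 and 3268 CPM with CGRP, 1 of 4 (*Ccr2*) fell, and their part in the values of *Irf8* and *Klf4* was not tested. Without PBS replicate 1, *Cebpb* and *Ptpn6* no longer passed in neutrophils (limma-voom adjusted p = 0.0788 and 0.0825). *Cebpb* also fell short in a single fit over the 12 libraries (limma-voom adjusted p = 0.105).

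**Figure D4:**
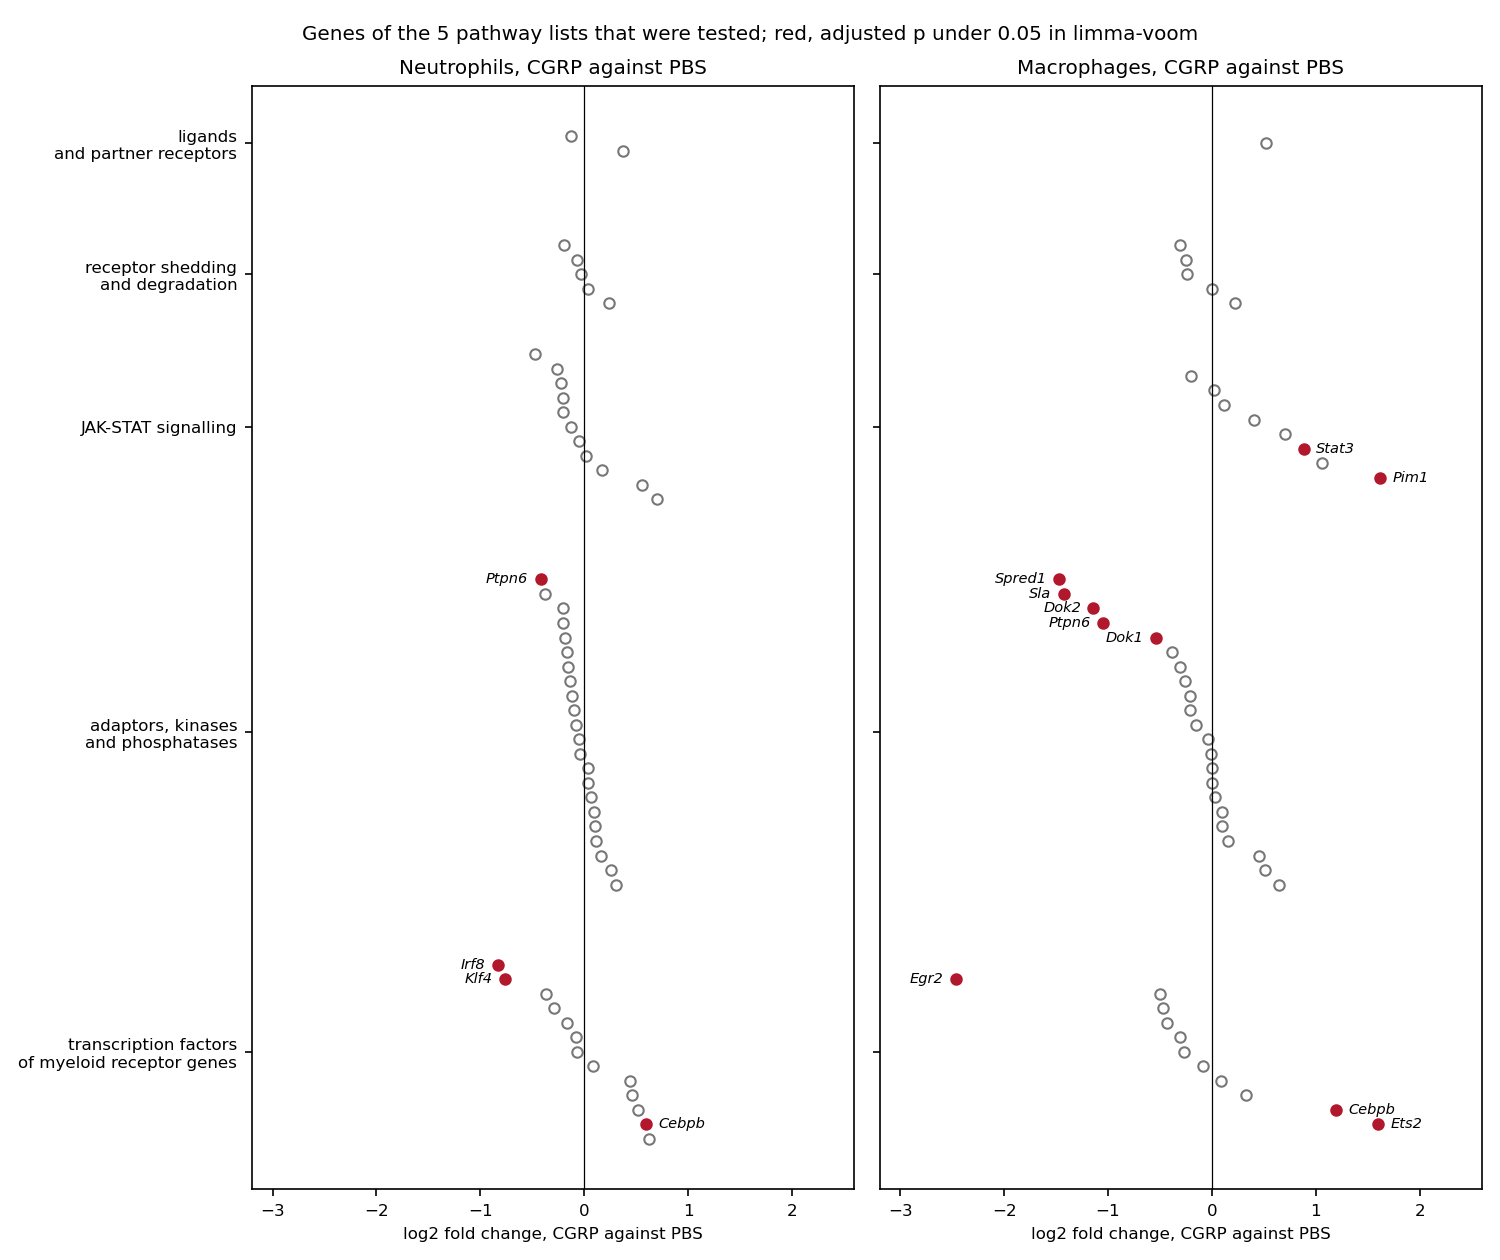
Log2 fold change, CGRP against PBS, of each gene of the 5 lists that was tested (1 row each, grouped by list and sorted within it), in neutrophils on the left (53 genes) and macrophages on the right (47 genes). Red points with names passed an adjusted p of 0.05 in limma-voom: 4 genes in neutrophils and 10 in macrophages, of which Ptpn6 and Cebpb are in both.

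The genes whose levels ran most like those of the β chain were named by the Pearson correlation of log2 CPM over the 12 libraries after each cell type's mean was taken off, among 7307 genes. For *Csf2rb* they were *Gpd2* (0.986), *Nuak2* (0.984) and *Ifngr1* (0.979), the last of which encodes a chain of the interferon-γ receptor. For *Csf2rb2* they were *Csf2rb* itself (0.943), *Nop53* (0.939) and *Nuak2* (0.931). The points share the contrast between CGRP and PBS macrophages, so the coefficients describe these libraries only.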

How the data were processed

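RNA was sequenced from 3 libraries in each of 4 groups (neutrophils or macrophages, with PBS or CGRP). The authors primed cDNA at the poly(A) tail with a 10-base molecular identifier, removed PCR copies with the nfCore/RNAseq pipeline, mapped the reads with STAR to GRCm38, assigned them to genes by featureCounts and deposited the raw counts, a table for either cell type. The annotation release and the strand setting are not given in the sources used here. Every value in both tables was a whole number of at least 0.

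Groups came from the sample labels and columns were matched by name. Genes were kept by filterByExpr, scaled by TMM and compared by limma-voom within each cell type (two-sided, Benjamini–Hochberg over all genes tested, threshold 0.05). The paper names TMM, limma-voom and this threshold, but not the filter. The difference in CGRP effect and the PBS groups were compared in a fit over the 12 libraries. Levels are TMM-scaled CPM. Correlations used log2 CPM with a prior count of 2 and genes that reached 10 counts in all 12 libraries. The depth per library (2002559 to 3631989 counts) sets the floor of 3 counts. The floors and the exact intervals of shares and count ratios cover counting error only. The intervals of log2 fold changes and log2 differences come from limma-voom and include the spread between libraries. The fits of the CGRP effect in each cell type and of the difference were tested on simulated data. The comparison of the PBS groups was not.

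Other settings tried were DESeq2 and the quasi-likelihood test of edgeR, library totals or the size factors of DESeq2 in place of TMM, no filter or a minimum of 10 counts per library, quality weights, the replicate number as a block, 1 fit over 12 libraries or over the 6 PBS libraries, summed β chain counts, and each library left out in turn. The 8 genes, the pathway and marker lists and the comparisons were chosen with earlier results of these data known. The genes named are the 8 members, every listed pathway gene with an adjusted p under 0.05 in either cell type, and the 3 most correlated genes of each called member; the other genes named are ligands, overlapping genes and markers used as checks, chosen after their values were seen. From the pathway lists 1 gene is not reported here and is left out of their counts.

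Of the 52636 gene identifiers, 52403 were found in GENCODE M21 (GRCm38), which gave positions, overlaps and transcripts; promoters came from RefSeq. Fits were run with DESeq2 1.42.0, edgeR 4.0.16 and limma 3.58.1 under R 4.3.3, and sequences and figures with Biopython 1.88, numpy 2.4.6, pandas 2.3.3 and matplotlib 3.10.9 under Python 3.11.15 (random seed 20240327).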

Additional observations from a re-analysis of the deposited data

Results flagged for a closer look

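The CGRP effect differed between the cell types for both β chain genes, by a test of the difference itself in limma-voom over the 12 libraries: it was higher in macrophages by 1.69 on the log2 scale for *Csf2rb* (adjusted p = 1.26e-05) and by 1.45 for *Csf2rb2* (adjusted p = 0.00962). Among the pathway genes called in either cell type, the same test passed for 5 of 12, where it did for 2.36% of all genes tested. These 12 were chosen for a CGRP effect in 1 cell type or both, so their share cannot be read against that of all genes. The effect was higher in macrophages for *Ets2* (1.10, limma-voom adjusted p = 0.0096) and *Stat3* (0.72, adjusted p = 0.0385), and lower in macrophages for *Egr2* (−2.11, limma-voom adjusted p = 0.0191), *Dok2* (−1.05, adjusted p = 0.0119) and *Ptpn6* (−0.62, adjusted p = 0.0269). *Egr2* had at most 12 counts in a PBS and 9 in a CGRP neutrophil library, too few to be tested within neutrophils. The call for *Stat3* held in 2 of the 12 fits with a library left out (without macrophage PBS replicate 3 or macrophage CGRP replicate 1) and that for *Ptpn6* in 6 of 12 (not without neutrophil PBS replicate 2 or 3, neutrophil CGRP replicate 1, macrophage PBS replicate 1, or macrophage CGRP replicate 2 or 3), with limma-voom adjusted p of up to 0.123 and 0.0896. For *Stat3* it was also lost with library totals in place of TMM (limma-voom adjusted p = 0.175) and with no filter on low counts (0.0535). For *Egr2* it was lost without neutrophil PBS replicate 1, neutrophil CGRP replicate 1 or 2, for *Dok2* without neutrophil PBS replicate 1 or neutrophil CGRP replicate 3, and for *Ets2* without neutrophil PBS replicate 1 or macrophage PBS replicate 1.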

How the results depend on the processing

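The rises of *Csf2rb* and *Csf2rb2* in macrophages passed under every alternative run and in each fit that left out a library, with log2 fold changes of 1.71 to 1.99 and 1.42 to 1.76 in the latter fits. The difference between the cell types passed for *Csf2rb* under every alternative, and for *Csf2rb2* under all but the 3 left-out libraries named in the report. Counts over all genes moved more: in a single fit over the 12 libraries they were 137 in neutrophils (248 as reported) and 1050 in macrophages (698), and with quality weights 1406 in macrophages and 520 for the difference (252). Leaving out a library gave 138 to 234 calls in neutrophils (fewest without PBS replicate 1 or 2, 153 without CGRP replicate 2), 347 to 765 in macrophages (347 without PBS replicate 1, 348 without CGRP replicate 2, 439 without CGRP replicate 3), 149 to 328 for the difference (149 without macrophage PBS replicate 1) and 6889 to 7559 between the PBS groups (7263); the cause was not tested. Only values near 0 that had not passed changed sign: with library totals in place of TMM, *Csf2ra* had −0.0065 for the difference and 0.071 between the PBS groups, and 0.0018 there with quality weights. With a library left out, the neutrophil log2 fold change ran from −0.063 to 0.366 for *Csf2rb2*, from −0.00084 to 0.0953 for *Csf2ra*, from −0.0449 to 0.291 for *Flt3* and from −0.0023 to 0.111 for *Csf3r*, and *Csf2ra* between the PBS groups from −0.0756 to 0.0313.

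Replicate numbers are shared across groups in the labels but nothing says that they pair libraries, and the deviations of same-numbered libraries correlated at −0.0312 to 0.0985 in neutrophils and −0.161 to 0.209 in macrophages. Those of differently numbered libraries correlated at −0.116 to 0.121 in neutrophils and −0.325 to 0.298 in macrophages. With the replicate block the counts were 254, 905, 288 and 7369 for neutrophils, macrophages, the difference and the PBS groups, and no call of the 8 genes changed. Depth limited *Kit* and *Flt3*, which could not be tested in macrophages.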
